A study of Homo sapiens with 4 samples.

Results

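The mitochondrial genome transcripts are the 37 of 60676 genes that the deposited count table places on chromosome MT (build hg38). They comprise 13 mRNAs, 2 rRNAs and 22 tRNAs. RNA was measured in U2OS, a long-established osteosarcoma line of human origin. The assay was sequencing after native nuclear RNA immunoprecipitation, in which a nuclear extract is incubated with an antibody without crosslinking and the RNA that comes down with it is sequenced. The design text names RNA bound to LC3B as the target and IgG as the negative control. LC3B is a small ubiquitin-like protein that is coupled to lipid on autophagosomes and also occurs in nuclei. The 4 libraries were an LC3B pulldown (antibody against LC3B), an IgG pulldown (non-specific antibody), the input of the LC3B pulldown and the input of the IgG pulldown (both without antibody). All came from the same line in serum-supplemented growth medium, and the labels name no treatment. Each group holds 1 library, so differences below lack any replicate check and p-values were not computed.

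Human mitochondrial DNA is a compact circle transcribed inside the organelle from both strands into long precursors. The tRNAs lie between most of the rRNA and mRNA genes and are cut out, which releases the flanking RNAs, and most of the mRNAs then receive a short poly(A) tail. The mRNAs encode membrane subunits of respiratory chain complexes I, III and IV and of the ATP synthase, and the rRNAs build the mitochondrial ribosome. None of this RNA is transcribed from nuclear DNA. A fold of a pulldown over its input measures how much of an RNA was recovered relative to other RNA. In bulk libraries such as these it gives neither the number of mitochondria carried over nor the RNA per mitochondrion.

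The libraries held 10456770 reads on genes in the LC3B pulldown, 10000914 in the IgG pulldown, 10782146 in the input of LC3B and 10886762 in the input of IgG. Reads fell on 23915 genes in the LC3B pulldown and 14440 in the IgG pulldown, against 23082 in the input of LC3B and 22947 in the input of IgG. The IgG pulldown thus stands apart by the number of genes it detected at a similar depth. Summed mesenchymal and osteosarcoma markers (8 genes) lay between 2267 and 4184 CPM (each gene's count as a share of its library's total) over the 4 libraries, although COL1A2 was at or below 0.29997 CPM in each. Summed epithelial markers (6 genes) lay between 1069 and 2320 CPM, nearly all from KRT18, and were higher in both pulldowns than in both inputs. Markers of blood and endothelium (8 genes) summed to at most 1.43 CPM, with CD3E at 0. The part of these differences between libraries in the mitochondrial results was not tested.

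Of the 37 genes, 15 had reads, namely all 13 mRNAs and both rRNAs, and the same 15 passed the filter of a mean of 1 CPM over the 4 libraries. The 22 tRNA genes, 14 on the plus strand and 8 on the minus strand with lengths of 59 to 75 bases, had 0 reads in every library. A count of 0 allows up to 3 reads, which is 0.287 CPM in the LC3B pulldown, 0.29997 in the IgG pulldown, 0.278 in the input of LC3B and 0.276 in the input of IgG. The libraries were built with a kit that primes on polyadenylated RNA. The part of the kit, of the short gene lengths and of the counting in these zeros was not tested.

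In the inputs, the transcripts covered a wide range per length. Levels are given here as CPM per kilobase of annotated gene, in the LC3B input and then the IgG input. MT-RNR2, the rRNA of the large mitochondrial ribosomal subunit, led with 59704 in the input of LC3B and 65262 in the input of IgG. MT-CO3 followed with 34994 and 38759 in those inputs, and MT-CO1 with 29999 and 32693. These mRNAs encode core subunits of complex IV, cytochrome c oxidase. MT-CYB, the cytochrome b of complex III, had 14675 in the input of LC3B and 16723.5 in the input of IgG. MT-CO2, the third mitochondrial subunit of complex IV, and MT-ATP6, a subunit of the proton channel of the ATP synthase, came next with 8389 to 10161 over both inputs. The 7 complex I mRNAs were lower, between 3789 for MT-ND4 in the IgG input and 83.7 for MT-ND4L in the LC3B input. MT-ND1, MT-ND2, MT-ND5 and MT-ND6 lay between 1361 and 1844 and did not keep one order in the 2 inputs. MT-RNR1, the rRNA of the small ribosomal subunit, had 425 in the input of LC3B and 535 in the input of IgG. Reads of MT-RNR2 exceeded those of MT-RNR1 by 230-fold in the LC3B input and 199-fold in the IgG input. The kit primes on polyadenylated RNA, so these reads are no measure of the relative amounts of the 2 rRNAs in the cell. The part of the priming in the levels here and in the rRNA to mRNA ratios below was not tested. The lowest 3 were MT-ND3, MT-ATP8 and MT-ND4L, at most 158 CPM per kilobase. MT-ATP8 shares an mRNA with MT-ATP6, and MT-ND4L with MT-ND4. In the LC3B input MT-ATP8 had 108 against 8389 for MT-ATP6, and MT-ND4L 83.7 against 3318 for MT-ND4. Values of these short genes are thus no measure of the level of the shared mRNA. The part of gene length, overlap and counting in them was not tested.

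**Figure D1:**
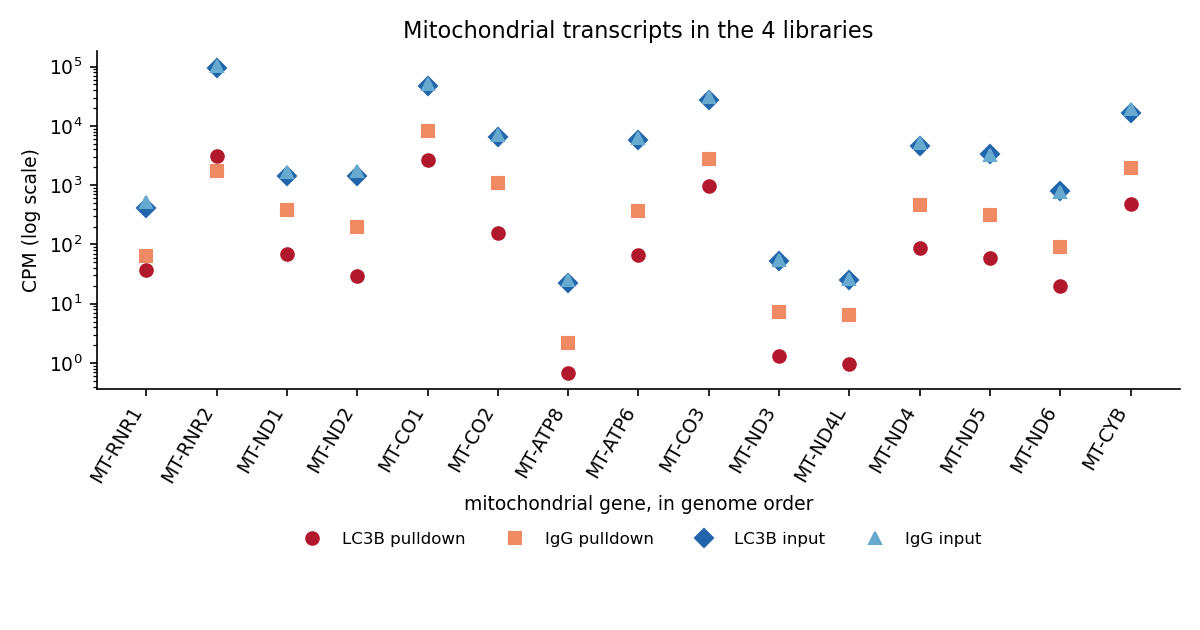
Level of each mitochondrial rRNA and mRNA in CPM (log scale, vertical axis), in genome order (horizontal axis). Points stand for the 4 single libraries; both pulldowns lie below both inputs for every gene, and the LC3B pulldown lies below the IgG pulldown for every gene except MT-RNR2.

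Every detected mitochondrial transcript was lower in both pulldowns than in the matching input. All 15 were called lower in the LC3B pulldown than in its input, where 1.75% of the 15108 genes past the filter were called lower and 5.82% higher. All 15 were likewise called lower in the IgG pulldown than in its input, where 29.4% of genes were called lower and 15.6% higher. A gene was called lower when the upper bound of the 95% counting interval of its fold was at most 0.5, and higher when the lower bound reached 2 or more. Intervals cover counting error only, since reads amplified without molecular identifiers are not independent molecules. The median residual level, the fold of a pulldown over its own input, was 0.0257 for the 13 mRNAs in the LC3B pulldown and 0.112 in the IgG pulldown. Over all genes past the filter the median fold was 1.27 for the LC3B pulldown over its input and 0.950 for the IgG pulldown over its input. Mitochondrial reads filled 0.774% of the LC3B pulldown and 1.76% of the IgG pulldown, against 20.8% of the input of LC3B and 22.8% of the input of IgG, so scaling by the total lifts other genes in the pulldowns. The log2 fold of the median gene was 0.34 in the LC3B pulldown and -0.07 in the IgG pulldown by total counts, and 0.02 and -0.42 in those pulldowns on totals without mitochondrial genes. Relative to the median gene, the mRNA median was -5.62 on the log2 scale in the LC3B pulldown and -3.09 in the IgG pulldown.

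**Figure D2:**
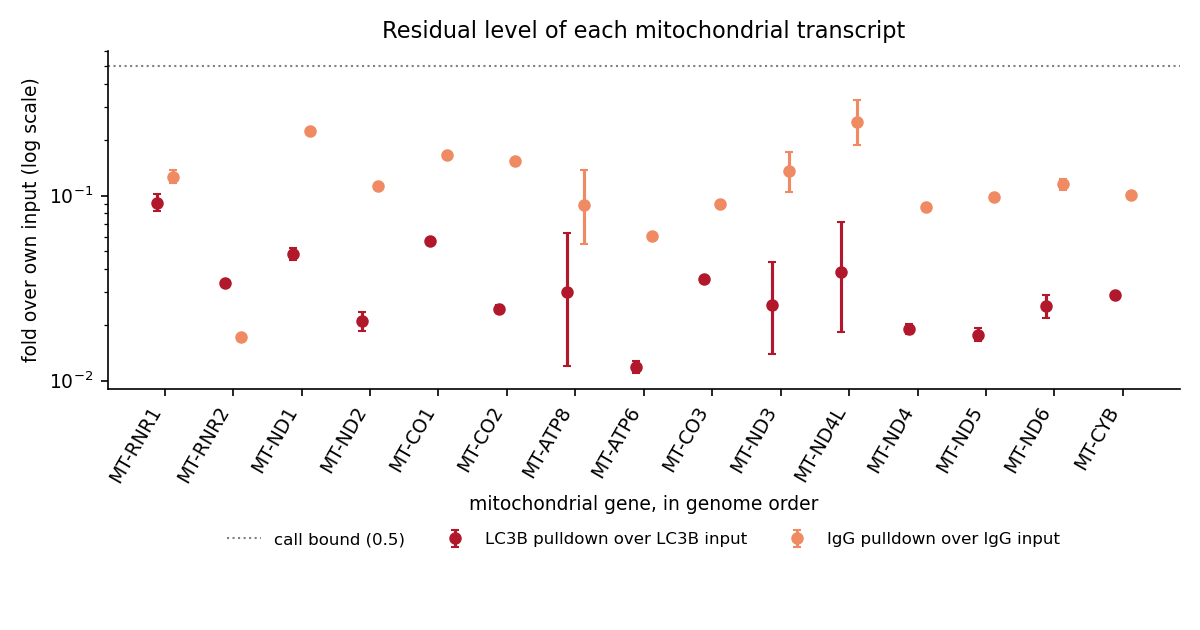
Residual level of each mitochondrial transcript as the fold of a pulldown over its own input (log scale, vertical axis), in genome order, for the LC3B pulldown and the IgG pulldown. Bars are 95% counting intervals and the dotted line is the bound for a call; MT-RNR2 is the lowest point of the IgG pulldown, and MT-ATP6 is the lowest of the LC3B pulldown.

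The rRNAs behaved unlike each other. MT-RNR2 (MT, bases 1671 to 3229, plus strand) had 32875 reads in the LC3B pulldown and 17515 in the IgG pulldown, against 1003586 in the input of LC3B and 1107662 in the input of IgG. It was the only mitochondrial transcript with more reads in the LC3B than in the IgG pulldown. Its residual level was 0.0338 in the LC3B pulldown (interval 0.0334 to 0.0342), within the range of the mRNAs, and 0.0172 in the IgG pulldown (0.0170 to 0.0175), below every other mitochondrial transcript. MT-RNR1 (bases 648 to 1601, plus strand) had 388 reads in the LC3B pulldown and 645 in the IgG pulldown, against 4369 in the input of LC3B and 5561 in the input of IgG. It had the highest residual level of the LC3B pulldown, 0.0916 (0.0823 to 0.102), and a middle one in the IgG pulldown, 0.126 (0.116 to 0.137). The ratio of MT-RNR2 to MT-RNR1 reads was 84.7 in the LC3B pulldown and 27.2 in the IgG pulldown, below the 230 of the LC3B input and the 199 of the IgG input.

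Summed over both genes, rRNA made up 41.1% of mitochondrial reads in the LC3B pulldown and 10.3% in the IgG pulldown, against 45.0% in the input of LC3B and 44.8% in the input of IgG. The ratio of rRNA to mRNA reads, which does not depend on the library scaling, was 0.697 in the LC3B pulldown and 0.115 in the IgG pulldown, against 0.818 in the input of LC3B and 0.813 in the input of IgG. The IgG pulldown was the one that stood apart, and the inputs differed by 1.01-fold (1.003 to 1.010). The LC3B pulldown ratio was 0.852 of its input's (0.840 to 0.864), the IgG pulldown ratio 0.141 of its input's (0.139 to 0.143), and the LC3B pulldown ratio 6.08 times that of the IgG pulldown (5.95 to 6.21). These sums were almost wholly MT-RNR2. With MT-RNR1 as the only rRNA the ratio to mRNA was 2.29 times its input's in the LC3B pulldown (2.07 to 2.54) and 1.003 times its input's in the IgG pulldown (0.924 to 1.09). The direction in the LC3B pulldown also rested on MT-CO1, the most abundant mRNA by reads: without it the rRNA to mRNA ratio was 1.19 times that of the input.

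**Figure D3:**
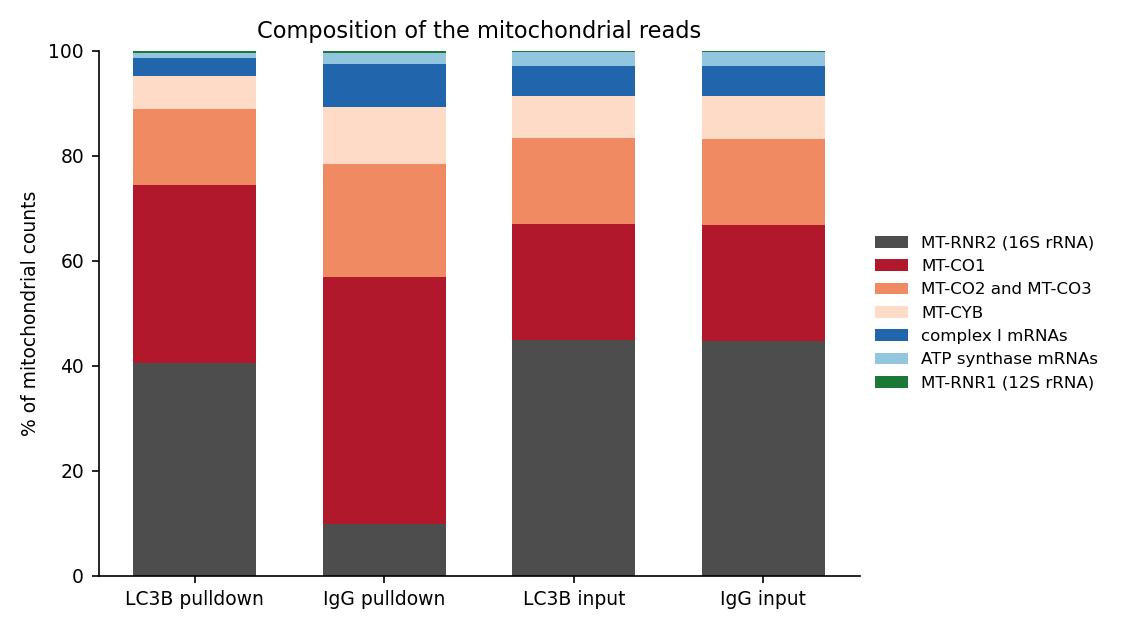
Composition of the mitochondrial reads in each library, as the percent of all mitochondrial reads (vertical axis, stacked bars to 100%). The inputs are nearly alike, MT-RNR2 takes 40.6% in the LC3B pulldown and 9.92% in the IgG pulldown, and MT-CO1 takes 33.7% and 47.0% in those pulldowns against 22.3% in the input of LC3B and 22.1% in the input of IgG.

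The complex IV mRNAs had the highest summed residual level of the mRNA groups in both pulldowns. MT-CO1 (bases 5904 to 7445, plus strand) had 27321 reads in the LC3B pulldown and 82992 in the IgG pulldown, against 498770 in the input of LC3B and 548826 in the input of IgG. MT-CO2 (7586 to 8269, plus strand) had 1634 reads in the LC3B pulldown and 10695 in the IgG pulldown, against 69373 in the input of LC3B and 75666 in the input of IgG. MT-CO3 (9207 to 9990, plus strand) had 10213 reads in the LC3B pulldown and 27357 in the IgG pulldown, against 295812 in the input of LC3B and 330817 in the input of IgG. Each was lowest in the LC3B pulldown and highest in the IgG input. MT-CO1 had the highest mRNA residual level of the LC3B pulldown, 0.0565 (0.0558 to 0.0572), and 0.165 in the IgG pulldown (0.163 to 0.166). MT-CO2 had 0.0243 in the LC3B pulldown (0.0231 to 0.0255) and 0.154 in the IgG pulldown (0.151 to 0.157). The third, MT-CO3, had 0.0356 in the LC3B pulldown (0.0349 to 0.0363) and 0.0900 in the IgG pulldown (0.0889 to 0.0911). MT-CO2 thus lay below MT-CO3 in the LC3B pulldown and above it in the IgG pulldown. Summed, the complex IV mRNAs had a residual level of 0.0467 in the LC3B pulldown and 0.138 in the IgG pulldown, and took 48.4% of mitochondrial reads in the LC3B pulldown and 68.6% in the IgG pulldown, against 38.6% in the input of LC3B and 38.5% in the input of IgG.

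MT-CYB is the single mitochondrial subunit of complex III, which passes electrons to cytochrome c. The gene (14747 to 15887, plus strand) had 5053 reads in the LC3B pulldown and 19113 in the IgG pulldown, against 180533 in the input of LC3B and 207736 in the input of IgG. Both pulldowns were again below both inputs. Its residual level was 0.0289 in the LC3B pulldown (0.0281 to 0.0297) and 0.1002 in the IgG pulldown (0.0987 to 0.102), in each case below the summed complex IV mRNAs.

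The ATP synthase mRNAs had the lowest summed residual level of the mRNA groups in both pulldowns, 0.0119 in the LC3B pulldown and 0.0604 in the IgG pulldown. MT-ATP6 (8527 to 9207, plus strand) had 705 reads in the LC3B pulldown and 3736 in the IgG pulldown, against 61595 in the input of LC3B and 67502 in the input of IgG. Its residual level of 0.0118 in the LC3B pulldown (0.0109 to 0.0127) was the lowest of the 15, and its 0.0602 in the IgG pulldown (0.0583 to 0.0623) was the lowest of the mRNAs. MT-ATP8 (8366 to 8572, plus strand) encodes a small accessory subunit and shares an mRNA with MT-ATP6, which it overlaps by position. It had 7 reads in the LC3B pulldown and 22 in the IgG pulldown, against 240 in the input of LC3B and 271 in the input of IgG. Its residual level of 0.0301 in the LC3B pulldown had an interval of 0.0120 to 0.0629, which overlaps that of MT-ATP6. The ratio of MT-ATP8 to MT-ATP6 reads was 2.55 times its input's in the LC3B pulldown (1.20 to 5.42) and 1.47 times its input's in the IgG pulldown (0.949 to 2.27). How reads on the shared bases were divided between these genes is not given in the sources used here.

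The 7 complex I mRNAs encode the membrane arm of NADH dehydrogenase. MT-ND1 (3307 to 4262, plus strand) had 717 reads in the LC3B pulldown and 3743 in the IgG pulldown, against 15343 in the input of LC3B and 18332 in the input of IgG. MT-ND2 (4470 to 5511, plus strand) had 310 reads in the LC3B pulldown and 1938 in the IgG pulldown, against 15295 in the input of LC3B and 18855 in the input of IgG. These neighbours were alike in the inputs, but MT-ND1 was higher in both pulldowns. The residual level of MT-ND1 was 0.0482 in the LC3B pulldown (0.0446 to 0.0519) and 0.222 in the IgG pulldown (0.215 to 0.230). That of MT-ND2 was 0.0209 in the LC3B pulldown (0.0186 to 0.0234) and 0.112 in the IgG pulldown (0.107 to 0.117). Their intervals did not overlap in either pulldown, and MT-ND1 was the higher in both. MT-ND4 (10760 to 12137, plus strand) had 908 reads in the LC3B pulldown and 4544 in the IgG pulldown, against 49303 in the input of LC3B and 56842 in the input of IgG. MT-ND5 (12337 to 14148, plus strand) had 619 reads in the LC3B pulldown and 3178 in the IgG pulldown, against 36027 in the input of LC3B and 35202 in the input of IgG. Both were low in the LC3B pulldown, with residual levels of 0.0190 (0.0178 to 0.0203) for MT-ND4 and 0.0177 (0.0163 to 0.0192) for MT-ND5, whose intervals overlap. In the IgG pulldown MT-ND4 had 0.0870 (0.0844 to 0.0897) and MT-ND5 0.0983 (0.0947 to 0.102).

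The shortest complex I mRNAs rest on few reads. MT-ND3 (10059 to 10404, plus strand) had 14 reads in the LC3B pulldown and 74 in the IgG pulldown, against 562 in the input of LC3B and 595 in the input of IgG. MT-ND4L (10470 to 10766, plus strand), which shares an mRNA with MT-ND4 and overlaps it, had 10 reads in the LC3B pulldown and 65 in the IgG pulldown, against 268 in the input of LC3B and 285 in the input of IgG. The residual level of MT-ND3 was 0.0257 in the LC3B pulldown (0.0140 to 0.0435) and 0.135 in the IgG pulldown (0.105 to 0.173). MT-ND4L had 0.0385 in the LC3B pulldown (0.0182 to 0.0719) and 0.248 in the IgG pulldown (0.187 to 0.326), the highest point of the 15 there, with an interval that overlaps that of MT-ND1. Reads of MT-ND4L relative to MT-ND4 were 2.03 times the input ratio in the LC3B pulldown (1.07 to 3.82) and 2.85 times in the IgG pulldown (2.18 to 3.74). In both shared mRNAs the shorter reading frame, which lies on the 5′ side, thus kept the larger share as a point value, and in the IgG pulldown the interval for MT-ATP8 over MT-ATP6 includes 1. The summed complex I mRNAs had a residual level of 0.0229 in the LC3B pulldown and 0.113 in the IgG pulldown.

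MT-ND6 (14149 to 14673) is the one mRNA annotated on the minus strand, and it lies beside MT-ND5 on the plus strand. It had 210 reads in the LC3B pulldown and 897 in the IgG pulldown, against 8584 in the input of LC3B and 8487 in the input of IgG. Its residual level of 0.0252 in the LC3B pulldown (0.0219 to 0.0289) and of 0.115 in the IgG pulldown (0.107 to 0.123) lay inside the range of the 12 plus-strand mRNAs in both. Relative to the summed plus-strand mRNAs, MT-ND6 was 0.630 of its input level in the LC3B pulldown (0.549 to 0.722) and 0.914 in the IgG pulldown (0.853 to 0.979), while the LC3B input was 1.13 times the IgG input (1.09 to 1.16). Relative to MT-ND5 alone, MT-ND6 was 1.42 times its input level in the LC3B pulldown (1.22 to 1.67) and 1.17 times in the IgG pulldown (1.08 to 1.27). The sign of the strand difference thus depended on the plus-strand mRNAs it was set against. Whether the counting used strand is not given in the sources used here, so reads of MT-ND6 and of RNA from the opposite strand cannot be told apart.

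Residual levels followed position along the genome only weakly. Spearman's rho between residual level and the gene's midpoint over the 13 mRNAs was -0.30 in the LC3B pulldown and -0.28 in the IgG pulldown, and 0.47 for the LC3B input over the IgG input, which involve no antibody. It was -0.34 in both pulldowns for the 12 plus-strand mRNAs. The first 6 mRNAs by position (MT-ND1 to MT-ATP6) had a median residual level of 0.0272 in the LC3B pulldown and 0.133 in the IgG pulldown. The last 7 (MT-CO3 to MT-CYB) had 0.0257 in the LC3B pulldown and 0.1002 in the IgG pulldown. Gene length gave a rho of -0.16 in the LC3B pulldown and -0.10 in the IgG pulldown, and mean input CPM gave -0.02 and -0.16 in those pulldowns. The residual levels of the 2 pulldowns, which share no library, had a rho of 0.63 with each other over the 13 mRNAs and of 0.49 once both rRNAs were added. These values describe genes within the same libraries, and the mRNAs share precursors, so they are no test.

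Set against the IgG pulldown, the LC3B pulldown held less of every mitochondrial mRNA. Of the 15 transcripts, 12 were called lower and 0 higher, where 9.47% of all genes were called lower and 33.5% higher. The mRNA folds of the LC3B over the IgG pulldown lay between 0.146 for MT-CO2 (0.139 to 0.154) and 0.357 for MT-CO3 (0.349 to 0.365). MT-ATP8 had 0.304 (0.110 to 0.738) and was the one mRNA without a call. MT-RNR1 had 0.575 (0.506 to 0.654) and MT-RNR2 1.80 (1.76 to 1.83), neither of which was called. The inputs, which the labels tell apart only by the pulldown they go with, gave no call among the 15, where 0.126% of all genes were called in each direction. Their folds lay between 0.793 for MT-RNR1 (0.762 to 0.825) and 1.03 for MT-ND5 (1.02 to 1.05), so each mRNA lay further from 1 between the pulldowns than any transcript did between the inputs.

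Dividing each pulldown by its own input before comparing them gave 12 transcripts lower and 0 higher again, where 8.08% of all genes were lower and 28.9% higher by this input-corrected ratio. MT-RNR2 was the one transcript above 1, at 1.96 (1.93 to 1.999), just short of a call. MT-RNR1 had 0.726 (0.636 to 0.828). Among the mRNAs the ratio lay between 0.158 for MT-CO2 (0.150 to 0.166) and 0.395 for MT-CO3 (0.386 to 0.405). The complex I mRNAs were close together, between 0.161 for MT-ND4L and 0.220 for MT-ND6. MT-CYB had 0.288 (0.279 to 0.297), MT-CO1 0.343 (0.338 to 0.348) and MT-ATP6 0.196 (0.181 to 0.213).

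**Figure D4:**
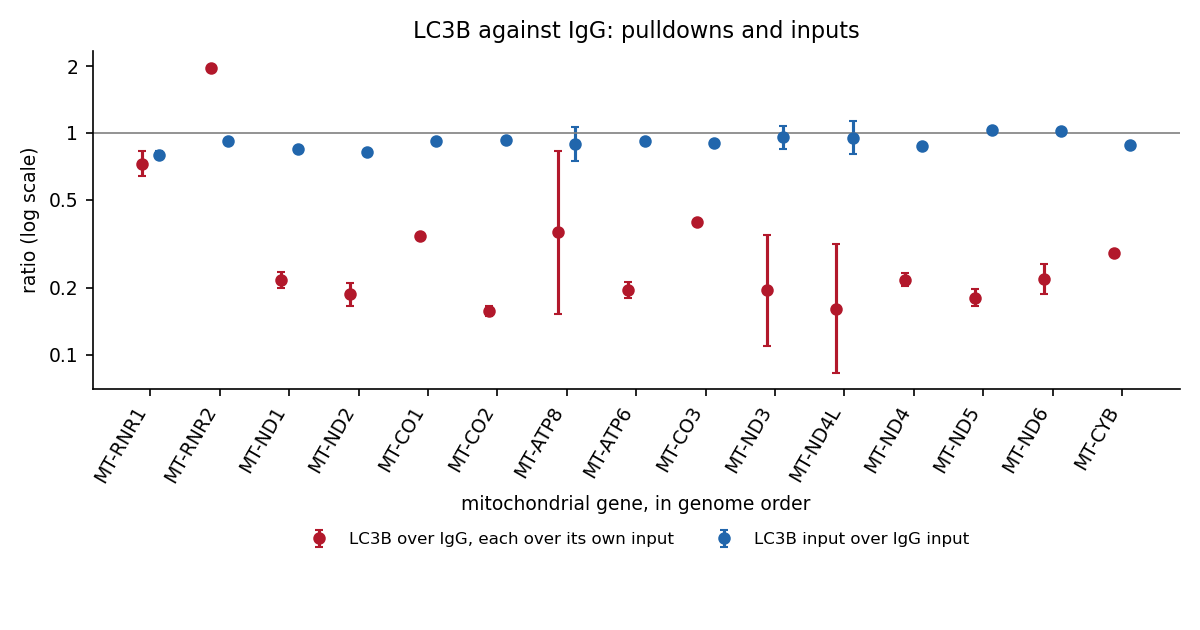
Input-corrected ratio of the LC3B to the IgG pulldown, and ratio of the LC3B to the IgG input, for each mitochondrial transcript in genome order (vertical axis, log scale, bars are 95% counting intervals). The input ratios lie between 0.793 and 1.03, with MT-ND5 and MT-ND6 above 1. The input-corrected ratios of the mRNAs lie between 0.158 and 0.395, and of these input-corrected ratios MT-RNR2 alone lies above 1.

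Among abundant genes, the mitochondrial transcripts were at the very low end of the LC3B pulldown, and less so of the IgG pulldown. Of 6382 nuclear genes averaging 20 CPM or more in the inputs, 4 had a lower fold over input in the LC3B pulldown than MT-RNR1, the highest mitochondrial transcript. These were MTATP6P1, MTCO1P12, MTRNR2L12 and 1 of 2 entries with the symbol MATR3, which had 2 reads in the LC3B pulldown and 0 in the IgG pulldown, against 361 in the input of LC3B and 373 in the input of IgG. Reads may have been divided between the MATR3 entries, so its counts are uncertain. In the IgG pulldown 538 of the 6382 nuclear genes lay below MT-ND4L, the highest mitochondrial transcript there, and 134 of them had 0 reads. The median fold of these 6382 genes was 1.17 in the LC3B pulldown and 1.11 in the IgG pulldown.

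**Figure D5:**
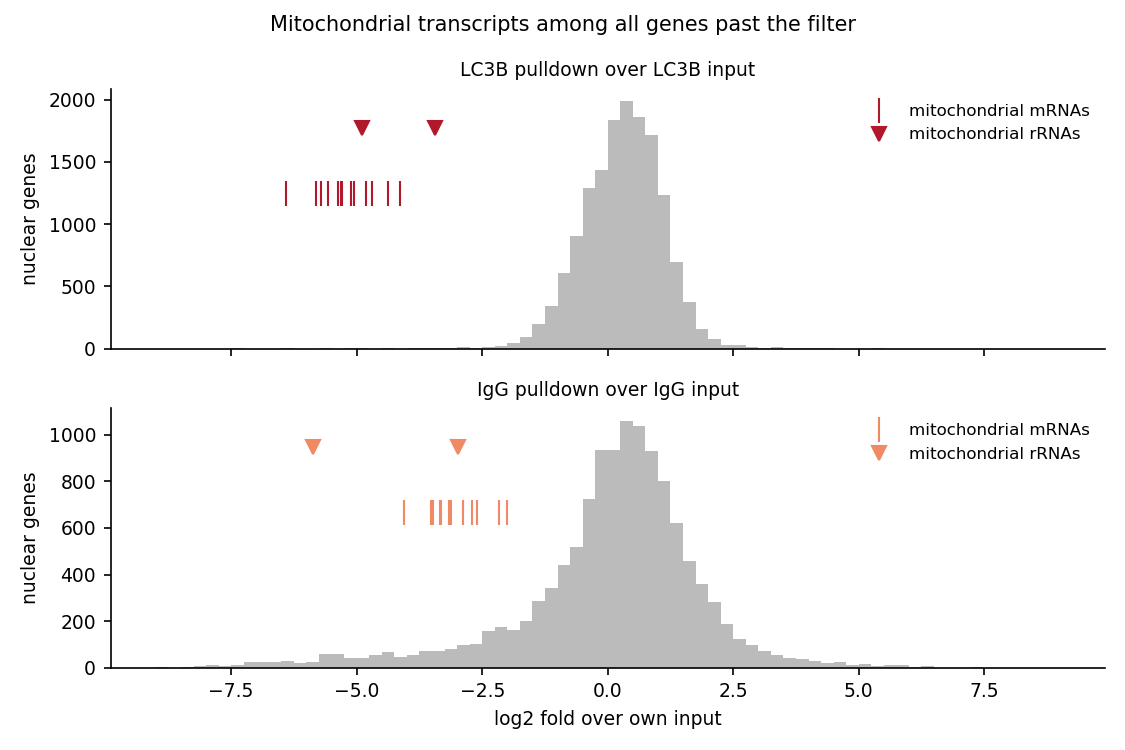
Number of nuclear genes past the filter (vertical axis) by log2 fold over the own input (horizontal axis), for the LC3B pulldown (top) and the IgG pulldown (bottom), with the mitochondrial mRNAs and rRNAs marked. The mitochondrial mRNAs lie left of nearly all nuclear genes in the LC3B pulldown and inside a broad left tail in the IgG pulldown; genes with 0 reads in the pulldown (32 for LC3B, 2812 for IgG) have no log2 value and are not drawn.

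MTATP6P1, MTCO1P12 and MTRNR2L12 are copies of mitochondrial sequence in nuclear chromosomes, whose reads cannot be told from those of the mitochondrial genes where the sequences are near-identical. Of 394 such copies with a P-numbered symbol, 25 had a read. MTATP6P1 (chromosome 1, 633696 to 634376) had 182 reads in the LC3B pulldown and 789 in the IgG pulldown, against 15036 in the input of LC3B and 16247 in the input of IgG. This was 25.8% of the MT-ATP6 count in the LC3B pulldown and 21.1% in the IgG pulldown, against 24.4% in the input of LC3B and 24.1% in the input of IgG. Its fold over input of 0.0125 in the LC3B pulldown and 0.0529 in the IgG pulldown was close to that of MT-ATP6. MTCO1P12 likewise had 0.0669 in the LC3B pulldown and 0.141 in the IgG pulldown. MTCO3P12, with 4 reads in the LC3B pulldown and 24 in the IgG pulldown, had 0.0217 (0.00585 to 0.0565) and 0.109 (0.0687 to 0.167). MTRNR2L12, chosen after its values were seen, had 0.0279 in the LC3B pulldown (0.0111 to 0.0582) and 0.0168 in the IgG pulldown (0.00455 to 0.0436). These point values were close to those of MT-RNR2 but rested on 7 reads in the LC3B pulldown and 4 in the IgG pulldown. Its fold of the LC3B over the IgG pulldown, 1.67 (0.425 to 7.80), does not separate the pulldowns.

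The nuclear mRNAs for proteins that make, process, stabilise, degrade and translate mitochondrial RNA had a median fold over input above 1 in both pulldowns by total counts. All 68 such genes passed the filter. In the LC3B pulldown over its input 2 (2.94%) were called higher and 2 (2.94%) lower, where 5.82% of all genes were higher and 1.75% lower, and their median fold of 1.27 was that of all genes. In the IgG pulldown over its input 7 (10.3%) were called higher and 12 (17.6%) lower, both smaller shares than the 15.6% and 29.4% of all genes, with a median of 1.11 against 0.950 over all genes. Between the pulldowns 16 (23.5%) were called higher in LC3B and 3 (4.41%) lower, again smaller shares than the 33.5% and 9.47% of all genes, with a median of 1.27 against 1.34 over all genes. None of the 68 was called between the inputs. Scaling by totals without mitochondrial genes lowers every fold of a comparison by the same factor, so medians above 1 depend on the scaling. By those totals the median over all genes was 1.01 for LC3B over its input and 0.747 for IgG over its input.

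Of the 15 genes of mitochondrial transcription and DNA replication, none was called in the LC3B pulldown over its input. Over all genes 5.82% were higher and 1.75% lower there. In the IgG pulldown over its input 2 of the 15 (13.3%) were called lower and 0 higher, against 29.4% and 15.6% of all genes. The same 2 had 0 reads in the IgG pulldown, as had 2812 of the 15093 nuclear genes past the filter. POLG2, the accessory subunit of the mitochondrial DNA polymerase, had 209 reads in the LC3B pulldown and 0 in the IgG pulldown, against 97 in the input of LC3B and 76 in the input of IgG. TWNK, the mitochondrial replicative helicase, had 115 reads in the LC3B pulldown and 0 in the IgG pulldown, against 56 in the input of LC3B and 38 in the input of IgG. With 3 reads set for the zero in that library, POLG2 was 23.3-fold lower and TWNK 11.6-fold lower in the IgG pulldown than in its input. The interval upper bounds of these folds were 0.0541 for POLG2 and 0.111 for TWNK.

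Of the 23 genes of RNA processing and modification, 2 (8.70%) were called higher in the LC3B pulldown over its input and 0 lower. Over all genes these shares were 5.82% and 1.75%. The 2 were MRM1, a methyltransferase of MT-RNR2 (2.82-fold, 2.04 to 3.95), and ELAC2, which cuts the 3′ ends of tRNAs (2.38-fold, 2.01 to 2.83). Neither kept its call under any of the 3 other scalings. Over the input of IgG, 5 (21.7%) were called higher in its pulldown and 4 (17.4%) lower, where 15.6% of all genes were higher and 29.4% lower. TRMU, which thiolates mitochondrial tRNAs, was highest at 4.46-fold, followed by NSUN3, a tRNA methyltransferase, at 3.21-fold and PDE12, which removes poly(A) in mitochondria, at 2.66-fold. PDE12 lost its call under each of the 3 other scalings (2.09 to 2.20). NSUN4, an rRNA methyltransferase, had 289 reads in the LC3B pulldown and 0 in the IgG pulldown, against 275 in the input of LC3B and 258 in the input of IgG. With 3 reads set for its zero, NSUN4 was 79.0-fold lower in the IgG pulldown than in its input, with an interval upper bound of 0.0157. MTO1, a tRNA modification enzyme, had 2 reads and RPUSD4, a pseudouridine synthase, 1 read in the IgG pulldown, against 278 and 100 in the IgG input.

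Of the 17 genes of RNA stability, RNA granules and decay, 1 (5.88%) was called lower in the LC3B pulldown over its input and 0 higher. Over all genes these shares were 1.75% and 5.82%. The gene called lower was PNPT1, the polynucleotide phosphorylase of mitochondria, at 0.449 (0.405 to 0.497). Between the pulldowns 4 (23.5%) of the 17 were called higher in LC3B and 1 (5.88%) lower. Over all genes these shares were 33.5% and 9.47%. FASTKD5, DDX28 and GRSF1, described below, were among the higher, GRSF1 at 3.93-fold (3.51 to 4.40). The gene called lower was SUPV3L1, the helicase that works with PNPT1 in mitochondrial RNA decay, at 0.414 (0.374 to 0.457). By total counts PNPT1 had no call between the pulldowns, and SUPV3L1 had none in the LC3B pulldown over its input. In the IgG pulldown over its input 2 (11.8%) of the 17 were called higher and 4 (23.5%) lower. Over all genes these shares were 15.6% and 29.4%. The 2 higher were ERAL1, a chaperone of MT-RNR1, at 2.62-fold and FASTKD2, an RNA granule protein, at 2.37-fold. Both lost the call under each of the 3 other scalings, with 2.06 to 2.17 for ERAL1 and 1.87 to 1.96 for FASTKD2. FASTKD5, which acts on transcript ends that no tRNA borders, had 360 reads in the LC3B pulldown and 0 in the IgG pulldown, against 331 in the input of LC3B and 349 in the input of IgG. GRSF1, an RNA-binding protein of mitochondrial RNA granules, had 0.279 in the IgG pulldown over its input (0.249 to 0.312). DDX28, a helicase of the large ribosomal subunit, had 0 reads in the IgG pulldown. Its fold over input there had an upper bound of 0.0426. Of the 13 translation factors, 1 (7.69%) was called lower over input in LC3B and 2 (15.4%) in IgG, against 1.75% and 29.4% of all genes. MTRF1L, a release factor, was called lower in both pulldowns, at 0.403 in LC3B (0.351 to 0.462) and 0.195 in IgG (0.160 to 0.235). GFM2, an elongation factor G homologue, was called lower in the IgG pulldown over its input, at 0.387 (0.335 to 0.446). Set against the IgG pulldown, 5 of the 13 (38.5%) were called higher in LC3B, near the 33.5% of all genes, among them TUFM, the mitochondrial elongation factor Tu, at 2.63-fold, and TACO1, a translational activator of MT-CO1, and MTIF3, an initiation factor, both at 2.74-fold.

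The nuclear partners of the mitochondrial subunits in the respiratory chain and ATP synthase, 41 genes that all passed the filter, had no member called lower over input in either pulldown. In the LC3B pulldown over its input 8 (19.5%) were called higher and 0 lower, where 5.82% of all genes were higher and 1.75% lower, with a median fold of 1.52 against 1.27 over all genes. In the IgG pulldown over its input 12 (29.3%) were called higher and 0 lower, where 15.6% of all genes were higher and 29.4% lower, with a median of 1.36 against 0.950 over all genes. The counts depended on the scaling: on totals without mitochondrial genes, 1 was higher and 2 lower in LC3B, and 4 were higher and 0 lower in IgG. On those totals the median over all genes also fell, to 1.01 in LC3B and 0.747 in IgG. The shares of all genes called under the other scalings are not given here, so these counts do not show whether the difference from all genes changed. ATP5MC2, a subunit of the ATP synthase c ring, had 2.68-fold in the LC3B pulldown over its input (2.54 to 2.83), NDUFV1 of complex I 2.52-fold (2.31 to 2.76) and COX4I1 of complex IV 2.49-fold (2.39 to 2.60). NDUFV1 and COX4I1 lost this call under each of the 3 other scalings, and ATP5MC2 under 1 of them. In the IgG pulldown over its input UQCRC1 and CYC1 of complex III had 4.60-fold (4.40 to 4.81) and 4.04-fold (3.89 to 4.19), and NDUFV1 had 3.82-fold. Between the pulldowns 2 were called higher in LC3B, ATP5MC3 at 2.63-fold and ATP5MC2 at 2.36-fold, and 3 lower, ATP5F1C at 0.353, NDUFV2 at 0.389 and ATP5PO at 0.473, where 33.5% of all genes were higher and 9.47% lower. The lower calls came to 6 under TMM and under median-of-ratios scaling, UQCRC1 and CYC1 among them, again without a share of all genes to set beside them. Bounds of 4 and 0.25 left 0 in either direction. The median of the 41 between the pulldowns was 0.936, whereas that of the 13 mitochondrial mRNAs was 0.186.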

How the data were processed

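RNA was prepared with a native nuclear RNA immunoprecipitation kit and libraries with SMART-Seq v4, per the labels' protocols. Per the file headers, the deposited table gives raw counts of reads for each gene. Its digits were grouped with commas, and after these were removed every value was a whole number. TPM values in the other deposited table were made by the authors, per the file headers, and served as an alternative. The tools named were STAR 2.7.1a and cutadapt 2.8, and the build was hg38, per the submitters' processing notes. Not given in the sources used here are the counting tool, annotation release, strand setting and handling of reads that map to several places.

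Each library was scaled by its total count. Folds have exact conditional binomial (Clopper-Pearson) 95% intervals. Ratios of summed counts and the input-corrected ratio have log-normal counting intervals, the second with 0.5 added to each count. Where a library held 0 reads, 3 reads were set in it for a CPM bound or a fold. Such folds leave out counting error in the other library. The calling code was tested on simulated data. Python 3.11.15, numpy 2.4.6, pandas 2.3.3, scipy 1.17.1 and matplotlib 3.10.9 were used.

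Named were both rRNAs, all 13 mRNAs, tRNAs with at least 30 reads in a library (none), nuclear copies with at least 100 reads in an input, and of each nuclear list up to 3 called genes per direction and comparison with the most extreme nearer bound. The value of 1 marker gene is not reported here. The members and lists were chosen with earlier results of these data known. Alternatives were totals without mitochondrial genes, TMM (trimmed mean) factors and median-of-ratios factors in purpose-written code, filters of none and 5 CPM, call bounds of 4 and 0.25, thinning of reads to the smallest library, 1 added to each count, deposited TPM, single rRNAs, no most abundant mRNA, plus-strand mRNAs only and gene starts. The counts of oxidative phosphorylation partners under these scalings were added after seeing the data.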

Additional observations from a re-analysis of the deposited data

How the results depend on the processing

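Each group held 1 library, so no library could be left out. No paired analysis was possible because each group holds 1 library. The 60 folds of mitochondrial transcripts (15 in 4 comparisons) kept their calls under 3 other scalings and thinning; with bounds of 4 and 0.25, 53 did, and 6 transcripts rather than 12 were called lower for the LC3B over the IgG pulldown. The rRNA to mRNA ratio of the LC3B pulldown over its input, 0.852, was 2.29 with MT-RNR1 alone, 1.19 without MT-CO1 and 0.956 by deposited TPM. That of the IgG pulldown over its input, 0.141, was 0.137 with MT-RNR2 alone, 1.003 with MT-RNR1 alone, 0.178 without MT-CO1 and 0.157 by TPM. That of the LC3B over the IgG pulldown, 6.08, was 6.23, 1.996 and 6.77 for the first 3 of these alternatives. MT-ND6 relative to plus-strand mRNAs in the IgG pulldown over its input moved to 0.983 by TPM. Of the 68 nuclear genes, the calls over input in LC3B came to 0 higher without mitochondrial totals, under TMM, under median-of-ratios and with bounds of 4 and 0.25, and 1 after thinning, against 2. Lower calls there came to 3 under TMM and under median-of-ratios, 0 with those bounds and 1 after thinning, against 2. Higher calls over input in IgG came to 2 under each of the 3 scalings and 0 with those bounds, against 7. Lower calls in IgG came to 16 without mitochondrial totals, 15 under TMM and under median-of-ratios and 8 with those bounds, against 12. Between the pulldowns those bounds left 7 higher and 0 lower, against 16 and 3, and TMM and median-of-ratios each gave 13 and 4. The shares of all genes called under these alternatives are not given here. The cause was not tested. Depth limits MT-ATP8, MT-ND3 and MT-ND4L, with 7 to 14 reads in the LC3B pulldown.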

Other observations

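The deposited TPM values rank the short mitochondrial genes differently from reads per annotated kilobase. In the LC3B input, MT-ATP8 had 108 CPM per kilobase against 425 for MT-RNR1, but a TPM of 747 against 564. Over the 12 mitochondrial genes of at least 500 bases, the count divided by the TPM was linear in annotated length (Pearson r of 1 across genes), with an intercept equal to subtracting 196 bases in the LC3B pulldown and 195 in the IgG pulldown, against 199 in the input of LC3B and 198 in the input of IgG. For the short MT-ATP8, this goes with a TPM ratio to MT-ATP6 of 0.149 in the LC3B pulldown and 0.0855 in the IgG pulldown, against 0.0600 in the input of LC3B and 0.0617 in the input of IgG. The ratio of the counts was 0.00993 in the LC3B pulldown and 0.00589 in the IgG pulldown, against 0.00390 in the input of LC3B and 0.00401 in the input of IgG. These count ratios are not corrected for gene length, so only part of their distance from the TPM ratios concerns the bases subtracted.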
